A study of Mus musculus with 6 samples.

Results

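The 10 genes described here encode transcription factors of the coelomic epithelium and of kidney mesenchyme. They were taken by gene symbol from the deposited count table, in which all 10 of 10 were found among 48587 rows. They are Wt1, Tcf21, Tbx18, Tbx20, Gata4, Gata5, Gata6, Nr2f2, Osr1 and Foxd1. The table holds RNA bound to HA-tagged ribosomes of neonatal mouse kidney, from 3 Foxp1-deficient and 3 littermate control libraries. Foxp1-deficient animals were Cdh16Cre;Foxp1fl/fl;RiboTag and carried the treatment label chronic acid load. Controls were Cdh16Cre;Foxp1fl/+;RiboTag, so they too carried 1 floxed Foxp1 allele, and their treatment label was vehicle treatment. The protocols mention no acid load, and by the labels genotype and treatment cannot be told apart. RiboTag is an allele that adds an HA tag to a ribosomal protein in cells with Cre, and Cdh16 is a cadherin gene of kidney tubule epithelium, so the tagged cells were intended to be tubule cells. Whether the libraries of a group came from separate animals is not stated, and every p-value here therefore refers only to library-to-library spread, possibly technical.

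The coelomic epithelium lines the body cavity of the embryo and gives rise to the mesothelium that covers the organs. The zinc finger gene Wt1 is active in this lining, in nephron progenitors and in podocytes. Tcf21 is a bHLH gene of visceral and kidney mesenchyme, and the T-box gene Tbx18 marks ureteric mesenchyme and the epicardium. Tbx20 is a T-box gene best known from heart development. Gata4, Gata5 and Gata6 are the GATA zinc finger genes of heart, gut and body wall mesoderm. Nr2f2 encodes the nuclear receptor COUP-TFII of mesenchyme, Osr1 is an early marker of intermediate mesoderm, and Foxd1 is the forkhead gene that defines the cortical stroma of the developing kidney.

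Totals lay between 9710048 and 18958196 counts per library. Levels are given as CPM, a gene's count scaled to the library total. A count of 0 still allows 3 counts, equal to 0.158 to 0.309 CPM. That floor includes no error other than counting, and the table records no molecular identifiers that would remove PCR copies. Both libraries numbered 2 stood apart, with 8.72% (Foxp1-deficient) and 6.65% (control) of counts in 4 rows of ribosomal RNA type, against 1.49% to 2.85% in the other 4 libraries. Results that shift without them are given both ways. Foxp1 differed by a log2 fold change of -0.62 (SE 0.49, Foxp1-deficient over control, edgeR quasi-likelihood test, adjusted p = 0.9998). The value was -0.40 without the libraries numbered 2. Leaving out single libraries gave -0.93 (without Foxp1-deficient 1) to -0.27 (without Foxp1-deficient 2). With the library number as a block, edgeR gave -0.72 (SE 0.28, unadjusted p = 0.0519, adjusted p = 0.868). With that block and without the libraries numbered 2 it gave -0.39 (SE 0.13, unadjusted p = 0.0262, adjusted p = 0.378). Within library numbers 1, 2 and 3 the log2 difference in Foxp1 was -0.49, -1.46 and -0.26. The table sums all exons of a gene, the floxed ones included, so this checks the genotype only in part. Markers of the labelled tubule cells were low in 4 libraries. The summed level of 13 tubule genes was 62.4, 106 and 651 CPM in Foxp1-deficient libraries 1, 2 and 3, and 38.7, 57.4 and 520 CPM in controls 1, 2 and 3. Lrp2 alone made up 55.2, 97.4 and 203 CPM of these sums in Foxp1-deficient libraries 1, 2 and 3. In controls 1, 2 and 3 it made up 34.9, 27.4 and 115 CPM. Of the 13, 11 had no count in at least 1 library. Cdh16 itself ranged from 0.297 to 48.6 CPM.

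Wt1, Tcf21, Tbx18, Tbx20, Gata4, Gata6 and Nr2f2 had at least 10 CPM in all 6 libraries, whereas the stromal factor Foxd1 was at the detection limit. Foxd1 (chromosome 13, 98354242 to 98356703, mm10, 1 exon) had 1, 0 and 1 counts in Foxp1-deficient libraries 1, 2 and 3 and 1, 0 and 15 counts in controls 1, 2 and 3. Only control 3, at 0.824 CPM, lay above its floor, and no fold is given. Osr1 was the next lowest. It had 1.34 CPM in Foxp1-deficient 2, and Gata5 had 7.72 CPM in control 2. Together the 10 genes took 0.0511% to 0.121% of all counts. Foxd1 was also the only one of the 10 that did not pass the filter on low counts, so 9 could be tested.

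**Figure D1:**
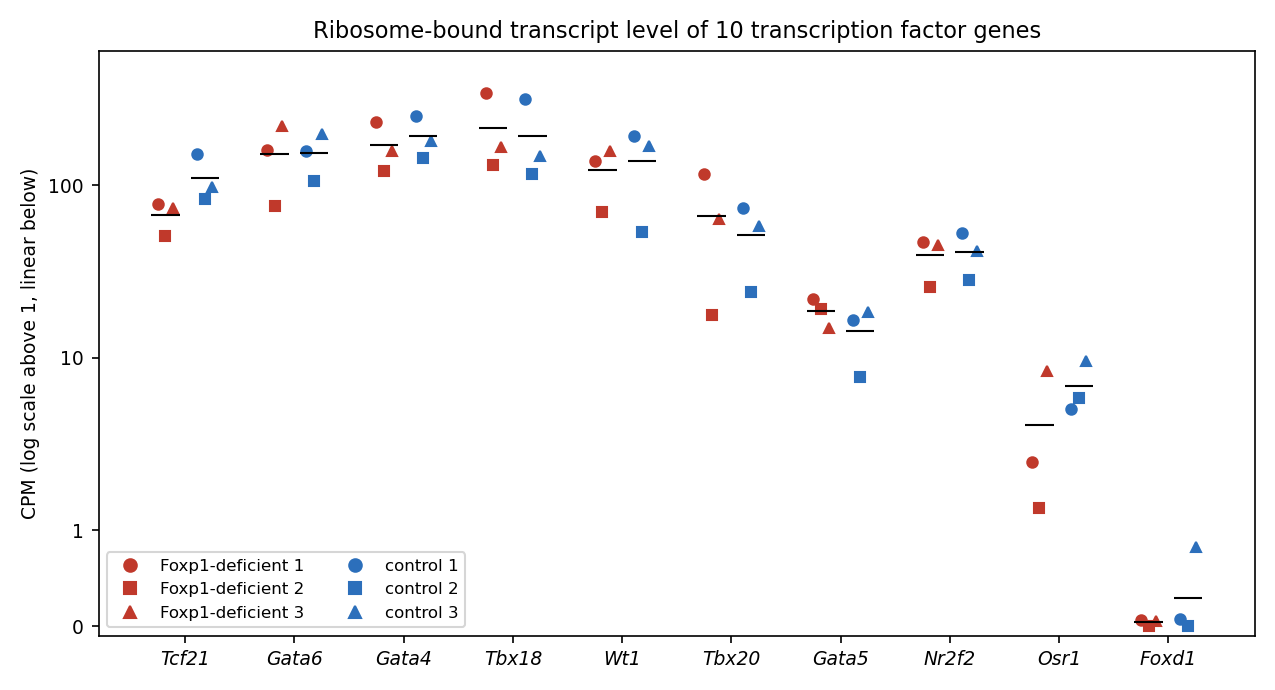
CPM on library totals of each factor in each library (red, Foxp1-deficient; blue, control; circle, square and triangle, libraries numbered 1, 2 and 3), with group means as black lines. Tcf21 is the gene whose groups do not overlap, the squares are the lowest of their group for most factors, and Foxd1 lies near 0.

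Per kilobase of exon, Tcf21 had the highest mean level and Foxd1 the lowest. Tcf21 was not the highest in every library. It exceeded Gata6 in 5 of 6, and lay below Tbx18 in Foxp1-deficient 1 (63.8 against 72.3 CPM per kb). Tcf21 averaged 72.7 ± 27.8 CPM per kb (SD, n = 6 libraries), followed by Gata6 at 47.8 ± 17, Gata4 at 46.2 ± 13.1 and Tbx18 at 43 ± 20.9 CPM per kb. Those last 3 were not ordered beyond their spread, since Gata6 exceeded Gata4 in 2 of 6 libraries and Gata4 exceeded Tbx18 in 4 of 6. Wt1 followed with 20.9 ± 9.0 CPM per kb, below Tbx18 in 6 of 6 libraries and above Tbx20 in 6 of 6. Tbx20 averaged 8.54 ± 5.2, Gata5 5.0 ± 1.48 and Nr2f2 4.64 ± 1.25 CPM per kb. Gata5 and Nr2f2 could not be ordered, with Gata5 higher in 3 of 6 libraries. Osr1 had 2.71 ± 1.6 and Foxd1 0.0681 ± 0.131 CPM per kb, below the factor before each in 6 of 6 libraries. Among 16793 genes with at least 1 CPM in some library, Tcf21 ranked 774, Gata6 1185, Gata4 1241 and Tbx18 1337 by mean CPM per kb, whereas Osr1 ranked 9359 and Foxd1 16581. The length per gene is that of the deposited table, in which Tcf21 has 1223 bases of exon, and a longer true transcript would lower its value.

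Within most families only 1 to 3 genes were well represented. Of 27 relatives of the 10 genes in 6 families, 13 never exceeded 1 CPM and 25 stayed below 20 CPM in all 6 libraries. The exceptions, named after their values were seen, were Mga, a T-box and bHLH-zip gene, and Nr2f6, a COUP-TF relative. Among GATA genes, Gata1, Gata2 and Gata3, the genes of blood and other lineages, averaged 0.776 ± 0.946, 0.156 ± 0.163 and 0.829 ± 0.444 CPM per kb (SD, n = 6), against 5.0 to 47.8 for Gata4, Gata5 and Gata6. Among 17 T-box genes, 9 never exceeded 1 CPM and 14 stayed below 20 CPM. Nr2f6 averaged 13.9 ± 3.95 CPM per kb, above Nr2f2, while Nr2f1 averaged 0.979 ± 0.715. Osr2, the paralog of Osr1, averaged 0.319 ± 0.28 CPM per kb. Foxd2, Foxd3 and Foxd4 were scarce too. The highest of them, Foxd2, reached 1.82 CPM and averaged 0.181 CPM per kb, against 0.0681 for Foxd1. Foxd4 had 0 counts in all 6 libraries.

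Counting took no account of strand, so antisense transcripts bear on some of these levels. Of the 10 factors, 4 share exon bases with a gene on the other strand: Tbx18 shares 20.6% of its exon length with D030062O11Rik, Gata5 7.87% with Gata5os, Nr2f2 7.46% with B130024G19Rik and Gata6 1.82% with 1010001N08Rik. D030062O11Rik had at most 47 counts in any library, Gata5os 30, B130024G19Rik 35 and 1010001N08Rik 270. With the options in the table's header a fragment that meets exons of both genes can be counted for neither.

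Between genotypes, no factor passed the test, which does not show that levels were equal: on simulated counts that varied by library number as these do, the fit without a block missed the planted changes. In edgeR's quasi-likelihood fit over 14311 genes, 0 were called (0%), and 0 of the 9 tested factors. At an unadjusted p under 0.05 there were 99 genes (0.692%) and 0 factors. With the replicate number as a block there were again 0 calls (0%), with 745 genes at an unadjusted p under 0.05 (5.21%), of which Tcf21 was the 1 factor. DESeq2 called 6 genes (0.0419%), or 169 (1.18%) with the block, and limma-voom with the block called 4 (0.028%). In edgeR with the block and without the libraries numbered 2 there were 29 calls (0.19%). None of these settings called any of the 9 factors. Of the 9 factors, 3 had log2 fold changes above 0 and 6 below, with a median of -0.06 against 0.03 over all genes tested, of which 46.4% were below 0. In such bulk material, fewer cells of a type and less RNA per cell cannot be told apart.

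Tcf21 (chromosome 10, 22817279 to 22820128, minus strand, 2 exon blocks) had the lowest unadjusted p of the 9 tested factors and was the only one whose groups did not overlap. Its level was 78.0, 50.4 and 73.6 CPM in Foxp1-deficient libraries 1, 2 and 3, and 151, 82.7 and 98.0 CPM in controls 1, 2 and 3. Every Foxp1-deficient library lay below every control. Groups lay apart in this direction for 2.07% of the genes tested and in the opposite one for 2.1%, so 1 of 9 factors is a count too small to read against that share. Within pairs of equal number the log2 difference was -0.95, -0.71 and -0.41. Without a block, edgeR gave a log2 fold change of -0.71 with an SE of 0.35 (adjusted p = 0.9998, unadjusted p = 0.0815), within the spread between libraries. Under the replicate block edgeR gave -0.68 with an SE of 0.16 (unadjusted p = 0.00776, adjusted p = 0.818), and DESeq2 with the block gave the lowest adjusted p of any setting, 0.0982. Without the libraries numbered 2 and with the block it was -0.69 (SE 0.15, adjusted p = 0.198, edgeR). Leaving out each library in turn gave -0.85 to -0.46, the nearest to 0 without control 1, which held the highest Tcf21 level.

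The 250 bases before the RefSeq start of Tcf21 (chr10:22820144-22820393, minus strand, GRCm38.p6, which is mm10) are shown because they belong to the factor with groups apart and hold a GATA match. Those of Tbx18 (chr9:87731261-87731510, minus strand) are shown because Tbx18 differed in the opposite direction in every pair, and those of Foxd1 (chr13:98353995-98354241, plus strand, 247 bases) because Foxd1 was near 0. Sequences are RefSeq's, 5′ to 3′, and capitals mark matches to any searched motif.
Tcf21: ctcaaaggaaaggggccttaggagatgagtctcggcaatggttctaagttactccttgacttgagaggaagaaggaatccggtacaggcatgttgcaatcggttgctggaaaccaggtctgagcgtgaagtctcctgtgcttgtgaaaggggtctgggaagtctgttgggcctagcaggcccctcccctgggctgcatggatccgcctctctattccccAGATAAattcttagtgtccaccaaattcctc
Tbx18: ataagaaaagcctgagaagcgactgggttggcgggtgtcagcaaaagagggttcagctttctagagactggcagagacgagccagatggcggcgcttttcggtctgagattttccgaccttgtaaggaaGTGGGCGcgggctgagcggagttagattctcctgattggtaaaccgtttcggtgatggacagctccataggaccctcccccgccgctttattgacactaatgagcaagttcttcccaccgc
Foxd1: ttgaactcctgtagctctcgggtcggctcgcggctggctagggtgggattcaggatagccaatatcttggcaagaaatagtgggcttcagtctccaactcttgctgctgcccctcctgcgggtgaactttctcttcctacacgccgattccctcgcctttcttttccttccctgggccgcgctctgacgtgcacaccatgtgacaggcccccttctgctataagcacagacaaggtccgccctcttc

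Of the 10 factors, 6 were matched to a RefSeq window by symbol: Gata5, Nr2f2, Tbx20, Tbx18, Tcf21 and Foxd1. Wt1, Gata4, Gata6 and Osr1 were not matched. Of several short motifs searched on both strands, none contains another, and shares are of 32851 windows of all genes. The forkhead motif TGTTTAC, that of the family of Foxp1, was in 0 of the 6 windows and in 3.17% of all windows. The GATA motif AGATAA was in the Tcf21 window and in 9.99% of all windows. Its variant TGATAA was in 0 of 6 and in 7.94% of all windows. The motif GTGGGCG of Wt1 and Egr factors was in the Tbx18 window and in 7.02% of all windows. The T-box motif AGGTGT was in 0 of 6 and in 11.8% of all windows, and the E-box CAGCTG in 0 of 6 and in 13% of all windows. A match describes letters and is not a binding site.

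Tbx18 (chromosome 9, 87702800 to 87731260, minus strand) had 341, 131 and 167 CPM in Foxp1-deficient libraries 1, 2 and 3, and 314, 115 and 148 CPM in controls 1, 2 and 3. The groups overlapped almost fully, but within each pair the Foxp1-deficient library was higher, by log2 differences of 0.12, 0.18 and 0.17. Such a pattern held for 16.5% of the genes tested. The log2 fold change was 0.16 (SE 0.51, adjusted p = 0.9998, edgeR), or 0.17 (SE 0.12, adjusted p = 0.868, edgeR) with the replicate block. The level of Tcf21 relative to that of Tbx18, per kilobase, was therefore lower in the Foxp1-deficient libraries, a comparison chosen after values were seen. The ratio was 0.882, 1.48 and 1.7 in Foxp1-deficient libraries 1, 2 and 3, and 1.85, 2.76 and 2.55 in controls 1, 2 and 3. The ratio of these 2 genes does not depend on the library total.

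Tbx20 (chromosome 9, 24720812 to 24774303, minus strand) had 116, 17.7 and 64.0 CPM in Foxp1-deficient libraries 1, 2 and 3, and 73.2, 23.9 and 57.8 CPM in controls 1, 2 and 3. Both libraries numbered 2 held its lowest levels. The pair differences went both ways, at 0.66, -0.42 and 0.15 on the log2 scale. Its log2 fold change was 0.33 (SE 0.63, adjusted p = 0.9998, edgeR), and 0.40 (SE 0.15, adjusted p = 0.426, edgeR) with the block and without the libraries numbered 2.

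Gata4 (chromosome 14, 63198922 to 63271692, minus strand) had 231, 120 and 158 CPM in Foxp1-deficient libraries 1, 2 and 3, and 251, 143 and 180 CPM in controls 1, 2 and 3. The groups overlapped, and the Foxp1-deficient library was lower in each pair, by log2 differences of -0.12, -0.25 and -0.18. Among the 9 tested factors, Gata4, Tcf21 and Osr1 were lower in 3 of 3 pairs, as were 16.1% of the genes tested. The log2 fold change of Gata4 was -0.17 (SE 0.38, adjusted p = 0.9998, edgeR), with an SE of 0.12 under the replicate block.

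Gata6 had 160, 75.8 and 221 CPM in Foxp1-deficient libraries 1, 2 and 3, and 157, 106 and 196 CPM in controls 1, 2 and 3. The groups overlapped and pairs went both ways. Its log2 fold change was -0.03 (SE 0.39, adjusted p = 0.9998, edgeR), or 0.10 (SE 0.23, adjusted p = 1, edgeR) without the libraries numbered 2. Which of Gata4 and Gata6 was more abundant went with library number, not genotype. The ratio of Gata4 to Gata6 per kilobase was 1.18, 1.29 and 0.587 in Foxp1-deficient libraries 1, 2 and 3, and 1.31, 1.1 and 0.749 in controls 1, 2 and 3, so Gata6 exceeded Gata4 in both libraries numbered 3.

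Gata5 (chromosome 2, 180325133 to 180334699, minus strand), the GATA gene of endoderm and heart cushion lineages, had 21.8, 19.1 and 14.9 CPM in Foxp1-deficient libraries 1, 2 and 3, and 16.5, 7.72 and 18.4 CPM in controls 1, 2 and 3. The groups overlapped, and the widest pair difference, 1.25 on the log2 scale, was in pair 2, where control 2 had 87 counts. Its log2 fold change was 0.47 (SE 0.46, adjusted p = 0.9998, edgeR), or 0.08 (SE 0.32, adjusted p = 1, edgeR) without the libraries numbered 2. Library number took 30.9% of the variance of its log2 level, the smallest share among the 9 tested factors, and genotype 23%. These shares are not on equal terms, since number has 3 levels and genotype 2.

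Wt1 (chromosome 2, 105126529 to 105173616, plus strand) had 138, 69.7 and 157 CPM in Foxp1-deficient libraries 1, 2 and 3, and 192, 53.7 and 168 CPM in controls 1, 2 and 3. The groups overlapped and both libraries numbered 2 held the lowest levels. The log2 fold change was -0.16 (SE 0.47, adjusted p = 0.9998, edgeR), or -0.30 (SE 0.21, adjusted p = 1, edgeR) without the libraries numbered 2. Of 8 genes reported elsewhere as Wt1 targets, 7 could be tested and 0 were called in either direction, with 3 log2 fold changes above 0, 4 below and a median of -0.01. Aldh1a2, the retinoic acid synthesis gene, had 127 ± 23.0 CPM in Foxp1-deficient libraries and 203 ± 91.3 in controls (SD, n = 3 each). Sulf1, a heparan sulfate sulfatase gene, had 229 ± 117 CPM in Foxp1-deficient libraries and 154 ± 70.3 in controls. Snai1 had 17.4 ± 6.85 CPM in Foxp1-deficient libraries and 20.8 ± 9.18 in controls, and Spry1 had 140.0 ± 85.3 CPM in Foxp1-deficient libraries and 109 ± 72.2 in controls. None of these differences was called. Without a block each was within the spread between libraries. Sulf1 and Spry1 were higher in the Foxp1-deficient library of each number and Aldh1a2 was lower, whereas Snai1 went both ways. Of the genes tested, 16.5% were higher and 16.1% lower in 3 of 3 pairs. With the replicate block edgeR gave 0.56 for Sulf1 (SE 0.12, unadjusted p = 0.00612, adjusted p = 0.786). For Spry1 it gave 0.50 (SE 0.23, unadjusted p = 0.0794, adjusted p = 0.868). For Aldh1a2 it gave -0.58 (SE 0.27, unadjusted p = 0.0865, adjusted p = 0.868), and for Snai1 -0.245 (SE 0.34).

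Nr2f2 (chromosome 7, 70351944 to 70366735, minus strand) had 46.9, 25.5 and 45.1 CPM in Foxp1-deficient libraries 1, 2 and 3, and 52.6, 28.3 and 41.6 CPM in controls 1, 2 and 3. Its groups overlapped nearly fully. The log2 fold change was -0.06 (SE 0.36, adjusted p = 0.9998, edgeR), or -0.05 (SE 0.16, adjusted p = 0.936, edgeR) with the replicate block.

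Osr1 (chromosome 12, 9574442 to 9581499, plus strand) had 2.5, 1.34 and 8.39 CPM in Foxp1-deficient libraries 1, 2 and 3, and 5.04, 5.86 and 9.61 CPM in controls 1, 2 and 3. The Foxp1-deficient library was lower in each pair, but Foxp1-deficient 3 lay above controls 1 and 2, so the groups overlapped. Counts were few, from 13 in Foxp1-deficient 2 to 175 in control 3. Its log2 fold change was -0.83 (SE 0.80, unadjusted p = 0.33, adjusted p = 0.9998, edgeR) and ranged from -1.74 without Foxp1-deficient 3 to -0.48 without Foxp1-deficient 2. With the replicate block it was -1.07 (SE 0.60, adjusted p = 0.868, edgeR), and without the libraries numbered 2 it was -0.45 (SE 0.71, adjusted p = 1, edgeR).

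**Figure D2:**
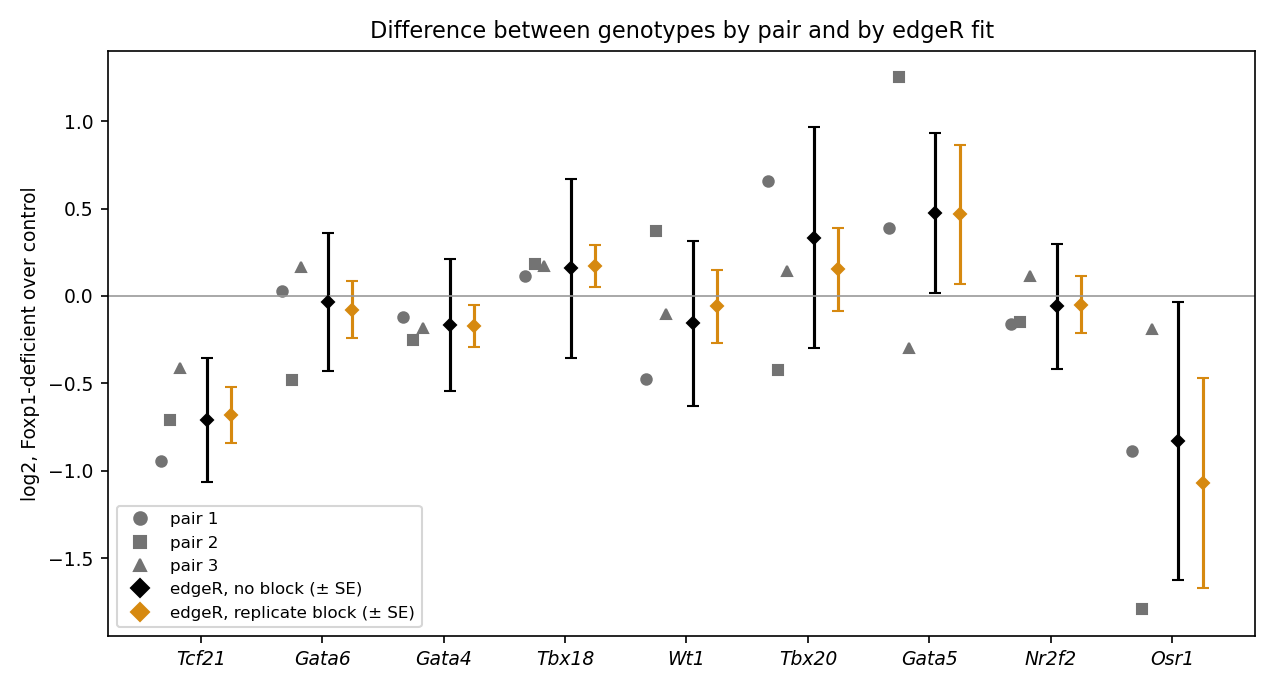
Log2 difference, Foxp1-deficient over control, of the 9 tested factors: grey shapes are the 3 pairs of equal number (log2 of CPM + 0.5), black and orange diamonds the edgeR fits without and with the replicate block, with their SE. Tcf21, Gata4 and Osr1 lie below 0 in all 3 pairs and Tbx18 above 0, and the block narrows the errors of most factors.

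Library number accounted for more of the variation of most factors than genotype did. It took 92.1% to 98.3% of the variance of log2 CPM for Wt1, Tbx18, Tbx20, Gata4, Gata6 and Nr2f2, against 0.238% to 6.26% for genotype. For Tcf21, genotype took 53.2% and number 41.5%, and for Osr1 30.4% and 55.1%. With 6 libraries any grouping takes up some variance. Number has 3 levels and genotype 2, so number takes the larger share on average even without an effect. The shares were not adjusted for this. In CPM on library totals, all 9 tested factors had their lowest mean over both genotypes in number 2. The TMM factors, by which the test scales those totals, were 0.81 and 0.85 in the libraries numbered 2. They were 1.05 to 1.16 in the others, so scaling would raise number 2 relative to numbers 1 and 3. Neither this order nor the variance shares were computed on scaled totals. Tbx18 was highest in number 1, with a mean of 328 CPM against 158 CPM in number 3. Gata6 was highest in number 3, with 209 CPM against 158 and 91.0 CPM in numbers 1 and 2. Osr1 was also highest in number 3, with 9.0 CPM against 3.77 and 3.6 CPM. The kidney tubule genes were highest in the libraries numbered 3 too, and their part in these levels was not tested.

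Among the factors, the profiles of Gata4 and Nr2f2 over the 6 libraries were the nearest, with a root mean square difference of 0.17 in centred log2 level, and those of Tbx18 and Osr1 the farthest, at 1.13. Over all genes of at least 5 CPM, the 2 nearest to Tcf21 among 9808 candidates were Tcf4 (0.14) and Sall2 (0.14). Those nearest to Wt1 were Pcdh7 (0.05) and Tdp2 (0.07), to Tbx18 Prps1l3 (0.10) and Dusp9 (0.12), and to Tbx20 Mllt4 (0.09) and Gdf6 (0.11). For Gata4 they were Rcc2 (0.03) and Ppp2r2a (0.05), for Gata6 Zfp384 (0.06) and Mbd1 (0.06), and for Gata5 Dbr1 (0.12) and Zfp709 (0.13). For Nr2f2 they were Acsl3 (0.04) and Mios (0.04), and for Osr1 Gsn (0.18) and Gsta3 (0.22). These profiles share the library differences described above.

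Partners of these factors were widely present. Of 14 partner and cofactor genes, 14 could be tested and 0 were called in either direction, with 6 log2 fold changes above 0, 8 below and a median of -0.01. With the replicate block, 4 lay above 0 and 10 below, with a median of -0.09 and 0 called. Tcf4, which encodes an E protein, the class of bHLH partner used by Tcf21, had 20.7 ± 5.29 CPM in Foxp1-deficient libraries and 30.8 ± 5.9 in controls (SD, n = 3 each). Its log2 fold change was -0.58 (SE 0.35, adjusted p = 0.9998, edgeR). Once replicate number was blocked, edgeR put Tcf4 at -0.575 with a smaller SE, 0.21. In that edgeR fit Tcf4 reached an unadjusted p of 0.0404, but its adjusted p of 0.868 left it uncalled. The other E protein genes of the list, Tcf3 and Tcf12, had higher CPM and differed less. Tcf3 had means of 108 CPM in Foxp1-deficient libraries and 112 in controls, and Tcf12 had 105 and 103. Their log2 fold changes were -0.05 (SE 0.51) and -0.002 (SE 0.82), or -0.10 (SE 0.16) and -0.26 (SE 0.29) with the replicate block. Zfpm1, a cofactor gene of GATA factors, had 153 ± 23.1 CPM in Foxp1-deficient libraries and 127 ± 27.6 in controls. Rxra, a retinoid X receptor gene, had 37.1 ± 13.7 CPM in Foxp1-deficient libraries and 43.4 ± 7.33 in controls. Tle1, a Groucho corepressor gene, had 14.5 ± 9.8 CPM in Foxp1-deficient libraries and 17.9 ± 9.46 in controls. Among 29 further transcription factor genes of regional mesoderm, 18 could be tested and 0 were called, with 9 log2 fold changes above 0 and 9 below and a median of 0.03. With the replicate block, 11 lay above 0 and 7 below, with a median of 0.08 and 0 called. Only 6 of the 29 had at least 5 CPM in all 6 libraries. Prrx2, a homeobox gene of mesenchyme, had 7.54 ± 2.64 CPM in Foxp1-deficient libraries and 3.29 ± 1.05 in controls. Lhx9, a LIM homeobox gene of the gonadal and coelomic lining, had 24.8 ± 15.9 CPM in Foxp1-deficient libraries and 13.7 ± 1.96 in controls. Foxc2, a forkhead gene of mesoderm, had 5.17 ± 1.73 CPM in Foxp1-deficient libraries and 10.0 ± 4.62 in controls. Tbx2 varied widely within groups, from 0 to 1.9 CPM in Foxp1-deficient libraries and from 0.21 to 6.13 CPM in controls, with means of 0.851 ± 0.965 CPM in Foxp1-deficient libraries and 3.78 ± 3.14 in controls. Each of these differences had an adjusted p of 0.9998 in edgeR without a block. Prrx2 and Lhx9 were higher in the Foxp1-deficient library of each number, Foxc2 was lower, and Tbx2 went both ways. The groups of Prrx2 lay apart, as for 2.1% of the genes tested in that direction. With the replicate block edgeR gave 1.18 (SE 0.565, unadjusted p = 0.0912) for Prrx2 and 0.70 (SE 0.33, unadjusted p = 0.0903) for Lhx9. For Foxc2 it gave -0.87 (SE 0.42, unadjusted p = 0.095) and for Tbx2 -1.75 (SE 2.07). Each adjusted p was 0.868.

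Marker genes of the cells that use these factors were unevenly represented. The 10 mesothelium genes, of which 9 had at least 10 CPM in all 6 libraries, summed to 3818 to 5704 CPM in Foxp1-deficient libraries and 2465 to 2497 CPM in controls, without overlap. Of the 10, 0 were called, 9 log2 fold changes lay above 0 and 1 below, and the median was 0.98. With the replicate block 7 lay above 0 and 3 below, with a median of 0.96 and 0 called. At an unadjusted p under 0.05 the block gave 6 above 0 and 1 below. The sum is carried by the most abundant genes, and the median level of the list did not separate the groups, with 102 CPM in Foxp1-deficient 2 and 112 CPM in control 2. Upk3b, a uroplakin gene, averaged 308 ± 153 CPM per kb and Msln, which encodes mesothelin, 301 ± 184 (SD, n = 6). Krt19 averaged 258 ± 265 and Upk1b 248 ± 105 CPM per kb. The 12 kidney stroma genes summed to 2684 to 15830 CPM in Foxp1-deficient libraries and 4309 to 15374 CPM in controls, led by Col1a1, Col3a1, Dcn and Lum, which are matrix genes of fibroblasts in many organs.

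The 7 smooth muscle genes summed to 5995 to 11018 CPM in Foxp1-deficient libraries and 11095 to 18598 CPM in controls, with 0 called, 7 of 7 log2 fold changes below 0 and a median of -1.01. With the replicate block, 7 of 7 had an unadjusted p under 0.05 and 0 were called. On library totals the smooth muscle sum, like Tcf21, was lower in every Foxp1-deficient library than in any control. Its margin was narrow, with 11018 CPM in Foxp1-deficient 1 and 11095 CPM in control 3. Scaling by the TMM factors of these libraries, 1.05 and 1.13, would reverse that order. The part of smooth muscle in the Tcf21 difference was not tested. Leukocyte genes were also below 0 for 7 of 7, with 0 called and a median of -1.19. Their sums were 53.5, 199 and 508 CPM in Foxp1-deficient libraries 1, 2 and 3. In controls 1, 2 and 3 they were 290, 326 and 1030 CPM, so the groups overlapped but each pair was lower in the Foxp1-deficient library. With the replicate block the median was -1.44, and 4 of 7 had an unadjusted p under 0.05 in edgeR, with 0 called. Endothelial genes summed to 115 to 180 CPM in Foxp1-deficient libraries and 69.9 to 173 CPM in controls. Most of that sum was Tek, an angiopoietin receptor gene named after its values were seen, with 91.5 to 136 CPM in Foxp1-deficient libraries and 48.8 to 113 CPM in controls. Of the 7 endothelial genes 0 were called, 2 log2 fold changes lay above 0 and 5 below, and the median was -1.07, or 1 above, 6 below and -1.38 with the replicate block.

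Genes of nephron progenitors and of podocytes were scarce or present in part. The markers named here beyond the most abundant of each list were picked as defining genes of their cell type. The 9 nephron progenitor genes summed to 14.6 to 34.0 CPM in Foxp1-deficient libraries and 31.6 to 48.8 CPM in controls, and 7 of 9 had no count in at least 1 library. Six2, the progenitor factor, was at most 2.45 CPM and Cited1 at most 2.68 CPM. Of 9 podocyte genes, only Podxl and Synpo had at least 10 CPM in all 6 libraries. Nphs1, the nephrin gene, was at most 1.21 CPM, and Podxl is also expressed by mesothelium and endothelium. Heart muscle genes were present in part. Of 9 such genes, 3 had at least 10 CPM in all 6 libraries. Myl7, an atrial myosin light chain gene, ranged from 446 to 4363 CPM. Tnnt2 ranged from 313 to 1098 CPM and Actc1 from 61.5 to 963 CPM, whereas Myh6 and Nkx2-5 were at most 34.8 and 1.85 CPM. The adrenal and gonadal factor Nr5a1 had 0 counts in all 6 libraries. Hepatocyte genes summed to 33.5 to 126 CPM in Foxp1-deficient libraries and 39.2 to 281 CPM in controls. The part of any of these cells in the levels of the 10 factors was not tested.

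**Figure D3:**
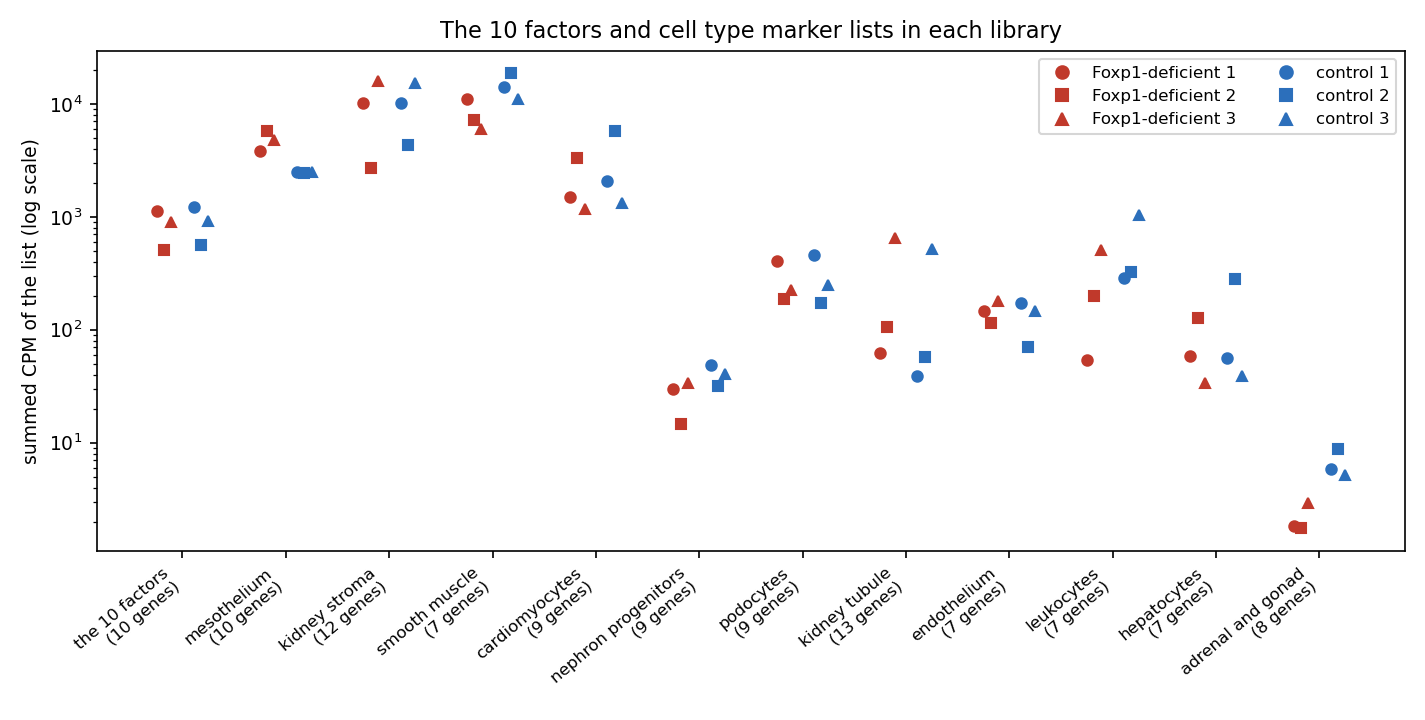
Summed CPM, on a log axis, of the 10 factors and of 11 cell type marker lists in each library (red, Foxp1-deficient; blue, control; shape, library number; genes per list in brackets). On library totals, mesothelium and smooth muscle lists separate the groups in opposite directions, smooth muscle only narrowly. Nephron progenitor genes sum to less than 50 CPM, and kidney tubule genes are highest in the triangles.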

How the data were processed

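The deposited values are raw counts: per the file headers, the authors ran featureCounts 1.5.1 on read pairs, summed exons by gene symbol (mm10, annotation version 86) and set no option for strand or multi-mapped reads. The submitters' processing notes also list STAR, Trimmomatic, SAMtools, FastQC, deepTools and DESeq2. Their settings were not given in the sources used. All 48587 rows have a gene name. Columns were matched to samples by name. The gene length in bases is another deposited value and was used only for CPM per kb.

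The test was run in R 4.3.3 with edgeR 4.0.16: TMM, filterByExpr, robust quasi-likelihood F test, two-sided, Benjamini-Hochberg adjustment over 14311 genes, threshold 0.05. SE was taken as the log2 fold change over the root of F. Alternatives used DESeq2 1.42.0, limma 3.58.1 and others named in the closing section, and the fits were tested on simulated data with planted changes and the pairing of these libraries. Signs and sizes of most changes were recovered, but edgeR without the block called none of them, fits with the block called part of them, and DESeq2 with the block made the most false calls. CPM are on library totals. Deviations from group means correlated between equally numbered libraries at r = 0.672, 0.644 and 0.691, so the numbers were taken to pair them, from the data and not from the labels. The 10 factors and all lists were chosen with earlier results of these data known. Named genes were the 10 factors, at most 4 per list by level or lowest p, and 2 nearest profiles per factor. Outside that rule, Six2, Cited1, Nphs1, Myh6, Nkx2-5, Nr5a1 and Cdh16 were named as defining markers. Tek, Mga, Nr2f6, Tcf3 and Tcf12 were named after their values were seen. The 4 rows of ribosomal RNA type (Rn18s-rs5, Gm23935, Gm26917 and the protein gene Lars2) follow earlier work on these data.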

Additional observations from a re-analysis of the deposited data

How the results depend on the processing

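Of the 18 alternatives, 0 called any of the 9 tested factors. The count of genes called between genotypes, 0 in edgeR, was 6 with DESeq2, 169 with DESeq2 and the replicate block, 4 with limma-voom and the replicate block and 29 in edgeR with the replicate block and without the libraries numbered 2. In edgeR with the replicate block and all 6 libraries it stayed at 0, and it was 0 to 0 when libraries were left out in turn. The direction turned without the libraries numbered 2 for Gata6, at 0.097 without a block and 0.092 with one. Leaving out single libraries turned Wt1 (range -0.49 to 0.15), Tbx18 (-0.31 to 0.66), Tbx20 (-0.37 to 0.74), Gata4 (-0.417 to 0.043), Gata6 (-0.29 to 0.21) and Nr2f2 (-0.19 to 0.14), and the cause was not tested. Tcf21 (-0.85 to -0.46), Osr1 (-1.74 to -0.48) and Gata5 (0.25 to 0.68) kept their direction there and in the other alternatives. Scaling by RLE, by upper quartile or by totals alone, no filter or a stricter one, and removal of mitochondrial, ribosomal RNA and globin genes turned no factor. CPM on TMM-scaled sizes moved each group mean by less than 1 SD. Foxd1, with at most 15 counts, and Osr1, with as few as 13, are limited by depth.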
